A study of Rattus norvegicus with 35 samples.

Results

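Expression of 10 genes for synaptic vesicles and transmitter release was followed in the olfactory epithelium of the rat, from birth to old age. The genes were those read by array probes whose gene name, or whose symbol in the probe description, was Snap25, Syt1, Vamp2, Syn1, Syn2, Sv2a, Slc17a6, Cplx1, Stx1a or Sncb. All 10 genes, of 35608 gene names on the array, were found, with 14 probes. The 35 arrays, each with 1 dye, held RNA of 27 Brown Norway rats. Newborn pups aged 3 to 5 days came from 4 litters, named L1 to L4, with 4 pups in L1 and 5 in each of the others, and the epithelium of 1 side of the nose of each pup was used. Their sex was not known. The 4 adult rats (9 weeks) and the 4 old rats (22 months) were males, with 1 array for each side of the nose. No label names a treatment or an allele. Pups came with their mothers from a supplier, whereas the old rats had been kept in the animal house from a young age, so litter, sex and housing were not matched between the ages.

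Transmitter release starts with a vesicle filled by a transporter. Slc17a6 encodes the vesicular glutamate transporter VGLUT2, which loads glutamate, the transmitter that olfactory sensory neurons release onto the olfactory bulb. The vesicle SNARE Vamp2 then pairs with Snap25 and Stx1a on the plasma membrane. Syt1 is the calcium sensor that triggers fusion and Cplx1 holds the SNARE complex ready for it. Synapsins (Syn1, Syn2) tether vesicles in reserve, Sv2a is a glycoprotein of the vesicle membrane, and Sncb (beta-synuclein) is a presynaptic protein of the brain. The cell bodies of the sensory neurons lie in the epithelium and their terminals in the bulb, so the RNA measured here comes from the cell bodies and from any other cells in the tissue.

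A level is the log2 of the background-subtracted intensity of a probe over the median intensity of its array, so that 0 is the median and 1 unit is a doubling. For adult and old rats the mean of both sides was taken, and a rat is the replicate throughout. The array median lay between 42.1 and 87.7 intensity units in pups, 81.6 and 162 in adult rats and 37.1 and 55.3 in old rats, and 24484 to 28361 of the 41012 probes were above background on an array. The 23668 probes above background in every litter, in adult and in old rats were tested, and a probe was called at a Benjamini-Hochberg adjusted p under 0.01 in limma. Of the members, 9 were tested. Cplx1 was above background on 17 of the 35 arrays and was described only. All adult arrays were scanned on days of their own and read by an earlier software release, so age and scan day cannot be told apart where adult rats are compared. L1 and old arrays shared 1 scan day. The arrays of L2, L3 and L4 were scanned on other days than the old arrays. For these litters, age and scan day cannot be told apart against old rats either.

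The libraries of the pups were not alike in markers of the olfactory bulb and brain. Slc32a1, the vesicular GABA transporter of bulb interneurons, lay between −0.68 and 2.99 on the log2 scale in the 8 adult and old rats. It was above all of these in 12 pups, at 3.74 to 5.59, and at −0.05 to 2.57 in the other 7. The 12 were all 4 pups of L1, 1 of L2, 4 of L3 and 3 of L4. Of 18 bulb and brain markers, 15 were measured and 10 were above background in all 6 groups. The mean log2 level of the 15 ranged from −0.46 to 2.87 in pups, 0.33 to 1.65 in adult rats and 0.73 to 1.89 in old rats. The log2 of their summed level ranged from 8.97 to 9.99, 9.17 to 9.70 and 9.74 to 10.04, but the marker Calb2 alone had a mean of 9.24, 9.29 and 9.74. Calb2 was at 9.01 in L1, below its level in old rats, whereas the mean of the 15 was 2.20 in L1 and 1.34 in old rats. Neurod2 was not well above background on any old array, nor Mog on any array of L2. The change of each tested member in pups is therefore given for all 19 pups and for the 7, a set chosen after the data were seen and not a group of the study, in which L1 has no pup and L3 has 1, assumed to vary like the others. The 7 are not matched to the older rats in these markers. Their brain marker mean was −0.46 to 0.93, and 6 of the 8 adult and old rats lay above all of them, while Neurod2, at −0.39 or more in every pup, was at most −1.66 in adult and −2.09 in old rats. The mature sensory neuron marker Omp was above background in every group.

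The probes are what the levels stand on, and those of the members whose results turn on a probe or vary most are shown 5′ to 3′. Sncb, Syn1 and Syn2 are each read by a single probe of 60 bases. Syt1 has 3 probes. The probe used here (rn3, chr7:47410236-47410295, minus strand) and the probe for a splice variant share 32 bases, in capitals, at positions 14 to 45 of the first and 29 to 60 of the other.
Sncb: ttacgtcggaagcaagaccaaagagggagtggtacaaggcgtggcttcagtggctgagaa
Syn1: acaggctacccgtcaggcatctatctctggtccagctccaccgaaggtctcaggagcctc
Syn2: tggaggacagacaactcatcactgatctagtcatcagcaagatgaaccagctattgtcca
Syt1, probe used: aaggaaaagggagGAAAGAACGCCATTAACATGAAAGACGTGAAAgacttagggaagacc
Syt1, splice variant: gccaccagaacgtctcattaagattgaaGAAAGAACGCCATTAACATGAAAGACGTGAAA
The probe used was above background on all 35 arrays and the probe for the splice variant on none of them. The Sncb probe lies on chromosome 17 of rn3 between 15908423 and 15911560, a span of 3138 bases for 60 bases of probe, so the file places it across at least 1 intron. The Syn1 probe lies at chrX:12560168-12560227 and the Syn2 probe at chr4:151637722-151637781.

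Syn2, which keeps vesicles in reserve, had the largest called changes of the members with age. Its level was 2.42 to 3.40 in pups, with a median of 2.84. The adult rats had 3.85, 3.97, 3.97 and 4.01, and the old rats 4.12, 4.17, 4.22 and 4.42. No pup reached the lowest adult rat, and no adult rat reached the lowest old rat. The share of all tested probes that separate these groups is not given here. Such separations, for Syn2 and for the members below, are only a description. Against adult rats, the log2 change of newborn rats, taken as the mean of the 4 litters, was −1.10 (SE 0.12, adjusted p = 7.14e-09), a 2.14-fold difference, and against old rats −1.38 (SE 0.12, adjusted p = 2.18e-10), a 2.60-fold difference. In bulk tissue, fewer neurons and less RNA in each neuron cannot be told apart. In order, the group means were 2.55 in L2, 2.80 in L4, 2.87 in L3, 3.20 in L1, 3.95 in adult and 4.23 in old rats, and L4 and L3 differed by less than the SD among their pups (0.32 and 0.26). The changes were −1.45 and −1.73 with the 7 pups of low Slc32a1.

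Slc17a6, the glutamate transporter, was also called lower in newborn rats. Pups had 5.14 to 6.03, with a median of 5.74. The adult rats had 5.80, 6.0, 6.10 and 6.25, within reach of the highest pups, and the old rats 6.10, 6.25, 6.36 and 6.53, all above the highest pup. The log2 change was −0.37 against adult rats (SE 0.11, adjusted p = 0.00291) and −0.65 against old rats (SE 0.11, adjusted p = 9.30e-06). These were −0.28 (adjusted p = 0.0853) and −0.55 (adjusted p = 0.00330) with the 7 pups, so the call against adult rats was lost. It was also lost with the slide (adjusted p = 0.0119) or the scan day (adjusted p = 0.0262) as a block, with litter means as the newborn replicates (adjusted p = 0.0260), with the methods' t-test (adjusted p = 0.0308) and without adult rat 13 (−0.30, adjusted p = 0.0258) or 15 (−0.35, adjusted p = 0.0133).

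Among the fusion proteins, Snap25 and Syt1 were called lower in newborn than in old rats, and Vamp2 and Stx1a were not called. Snap25 was at 5.02 to 6.02 in pups, with a median of 5.66, at 5.84, 5.95, 5.97 and 6.09 in adult rats and at 6.17, 6.37, 6.38 and 6.84 in old rats. The old rats stood above every pup and every adult rat. The log2 change of newborn rats was −0.82 against old rats (SE 0.13, adjusted p = 5.18e-06) and −0.34 against adult rats (adjusted p = 0.0195), the second not called. Both were called with the 7 pups, at −1.08 and −0.60.

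Syt1 was at 0.31 to 1.74 in pups, with a median of 0.90, at 1.30, 1.55, 1.72 and 1.84 in adult rats and at 1.69, 1.76, 1.76 and 1.84 in old rats. The old rats lay close together, and the highest pups overlapped them, with L3 pup 26 at 1.74 above the lowest old rat at 1.69. The log2 change was −0.71 against old rats (SE 0.21, adjusted p = 0.00487) and −0.55 against adult rats (adjusted p = 0.0237, not called). It was −1.22 and −1.06 with the 7 pups, both called. The call against old rats was lost with the slide (adjusted p = 0.0194) or the scan day (adjusted p = 0.0410) as a block, and without any 1 of the old rats (adjusted p 0.0116 to 0.0181). The third Syt1 probe (rn3, chr7:47263766-47263825, minus strand), above background on 28 arrays, gave other sizes in a fit without the filter on dim probes, −2.28 against adult rats (adjusted p = 1.51e-07) and −1.24 against old rats (adjusted p = 4.65e-04). In adult against old rats it gave 1.03 (adjusted p = 0.0194), where the probe used gave −0.16. The mean of all Syt1 probes gave −0.06 for newborn against old rats (adjusted p = 0.895). That mean includes the probe for the splice variant, which was above background on no array. Its mean level was −4.38 in pups and −6.21 in old rats, opposite in direction to the other Syt1 probes.

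Vamp2 was at 5.50 to 6.42 in pups, at 5.58, 5.69, 5.78 and 5.96 in adult rats and at 6.07, 6.19, 6.24 and 6.45 in old rats. Pups overlapped both other groups. The log2 change of newborn rats was 0.15 against adult rats (adjusted p = 0.328) and −0.33 against old rats (adjusted p = 0.0428). With the 7 pups they were −0.10 and −0.59, the second called (adjusted p = 2.30e-04). The other Vamp2 probe above background on all arrays gave 0.05 and 0.09, and a probe named for a Vamp2 variant was above background on 1 array. Stx1a was at 1.94 to 2.66 in pups, at 2.37, 2.52, 2.54 and 2.73 in adult rats and at 2.06, 2.20, 2.31 and 2.67 in old rats, so that the 3 ages overlapped. Its log2 change was −0.21 (95% interval −0.44 to 0.02) against adult rats and 0.03 (95% interval −0.21 to 0.26) against old rats, and −0.07 and 0.16 with the 7 pups, neither called. Cplx1 stayed near the detection limit. It was above background on 4 of 4 arrays of L1, 1 of 5 of L2, 3 of 5 of L3 and of L4, 2 of 8 of adult rats and 4 of 8 of old rats. Its level was −6.64, the floor, to −0.64 in pups, −3.14 to −1.83 in adult rats and −2.25 to −1.13 in old rats.

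Of the other proteins at the vesicle, Syn1 was at −0.84 to 1.56 in pups, with a median of 0.55. The adult rats had 1.0, 1.11, 1.20 and 1.37 and the old rats 0.39, 0.90, 1.09 and 1.14. Both lay inside the range of the pups. The log2 change of newborn rats was −0.70 against adult rats (adjusted p = 0.0143) and −0.42 against old rats (adjusted p = 0.142), neither called. With the 7 pups it was −1.32 (adjusted p = 3.59e-06) and −1.04 (adjusted p = 4.67e-05). Sv2a was at 4.09 to 6.40 in pups, with a median of 5.53, at 4.35, 4.41, 4.77 and 4.88 in adult rats and at 5.10, 5.14, 5.19 and 5.57 in old rats. Its change was 0.61 against adult rats (95% interval −0.02 to 1.24, adjusted p = 0.0740) and −0.03 against old rats (95% interval −0.66 to 0.60). With the 7 pups the values were −0.37 (adjusted p = 0.0272) and −1.01 (adjusted p = 2.22e-05), so the change of Sv2a against adult rats had the other sign.

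Sncb had the widest spread of all. In L1 its level was 1.45, 1.78, 2.83 and 3.22. The L2 pups had −2.42, −1.06, −0.70, 0.21 and 2.83, the L3 pups −1.66, 1.80, 2.88, 3.04 and 3.67, and the L4 pups −1.73, −0.44, 2.46, 3.03 and 3.79. The adult rats had −2.08, 0.46, 0.58 and 1.37 and the old rats −1.22, 0.63, 0.72 and 1.52. Within L2, L3 and L4 the lowest and the highest pup were thus more than 5 log2 units apart, and every adult and old rat lay below the highest pup of each litter. The log2 change of newborn rats was 1.28 against adult rats (95% interval −0.64 to 3.21, adjusted p = 0.215) and 0.95 against old rats (adjusted p = 0.371). In the 7 pups it was −1.33 (adjusted p = 0.113) and −1.66 (adjusted p = 0.0561). The median difference between the sides of the adult and old rats was also largest for Sncb, at 1.48 log2 units, against 0.08 for Syn2.

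**Figure D1:**
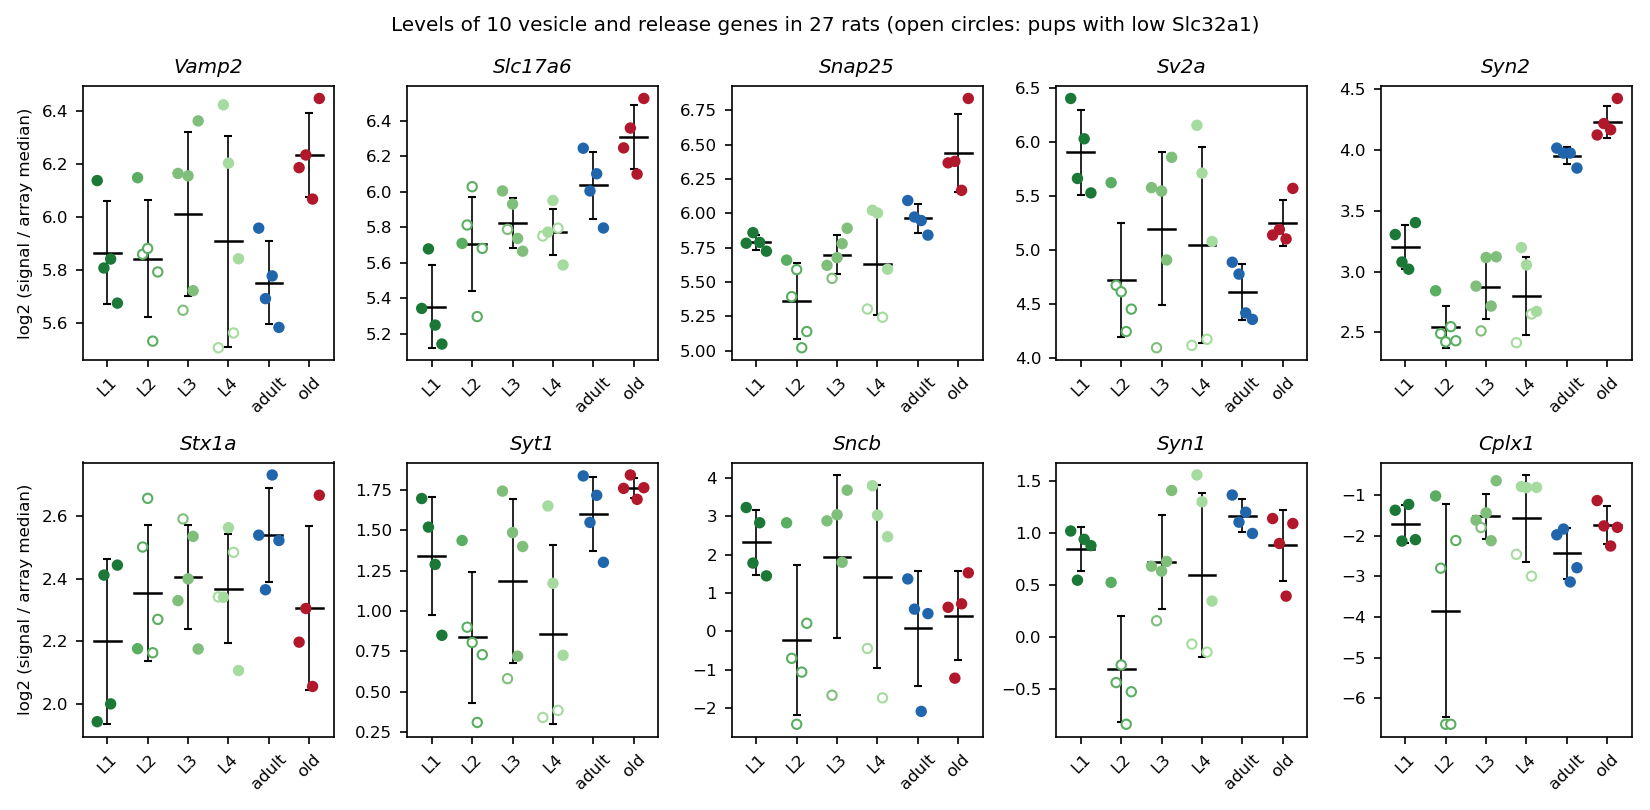
Log2 level of each member over the array median (y axis, with a scale of its own for each gene) in each rat, by litter, adult and old; bars are the mean and SD of a group, and open circles are the 7 pups of low Slc32a1. In Syn2 all pups lie below the adult and old rats, a description without the share of all probes for which that holds. In Sncb, Sv2a and Syn1 the open circles lie at the bottom of their litters.

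Counted together, 2 of the 9 tested members were called between newborn and adult rats, both lower in newborn rats (Slc17a6 and Syn2), where 66.4% of all tested probes were called, 26.7% lower and 39.7% higher. Between newborn and old rats 4 of 9 were called, all lower in newborn rats (Slc17a6, Snap25, Syn2 and Syt1), where 59.9% of all probes were called, 31.5% lower and 28.4% higher. The share of members called, 22.2% and 44.4%, was below that of all probes, and both comparisons use the same pups. The median log2 change of the members was −0.34 and −0.42, and that of all tested probes 0.15 and −0.03. Taken relative to the latter, Syn2 was at −1.25 and −1.34, Slc17a6 at −0.53 and −0.61, Snap25 at −0.50 and −0.78 and Syt1 at −0.70 and −0.68. The median of all probes against adult rats moved to 0.02 when arrays were scaled by their 75th percentile and to −0.03 with quantile normalization, and the split of all calls from 9392 higher and 6315 lower to 7489 higher and 8338 lower in the latter. The members called were then 6 and 3, each lower in newborn rats. Markers of other cells in the tissue moved with age as well. The mean log2 level of 8 skeletal muscle markers was 2.80 in pups, −2.50 in adult and −2.28 in old rats, that of 7 red cell markers 4.35, 0.94 and 2.03, and that of 8 markers of sustentacular cells, the supporting cells of the epithelium, 5.49, 6.63 and 7.07, and their part in these changes was not tested. Without L4 pup 32 the count against adult rats was 5 (with Snap25, Syn1 and Syt1), and without adult rat 13 or 15 it was 1.

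With the 7 pups alone, 4 members were called lower in newborn than in adult rats (Snap25, Syn1, Syn2 and Syt1), where 20.8% of all probes were, and 7 lower than in old rats (those 4 with Slc17a6, Sv2a and Vamp2), where 24.1% of all probes were. No member was called higher. The brain marker mean of these pups, −0.46 to 0.93, was low beside 0.33 to 1.65 in adult and 0.73 to 1.89 in old rats, and its part in these counts was not tested. With all pups and the mean of the brain markers as a covariate, 5 were lower and 1 higher than in adult rats (69.3% of all probes called) and 5 lower and 1 higher than in old rats (63.4%). The member called higher was Sncb, at 0.62 (adjusted p = 0.00184) and 0.69 (adjusted p = 7.09e-04). With the 7 pups, low in these markers, the values of Sncb were −1.33 and −1.66, not called.

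**Figure D2:**
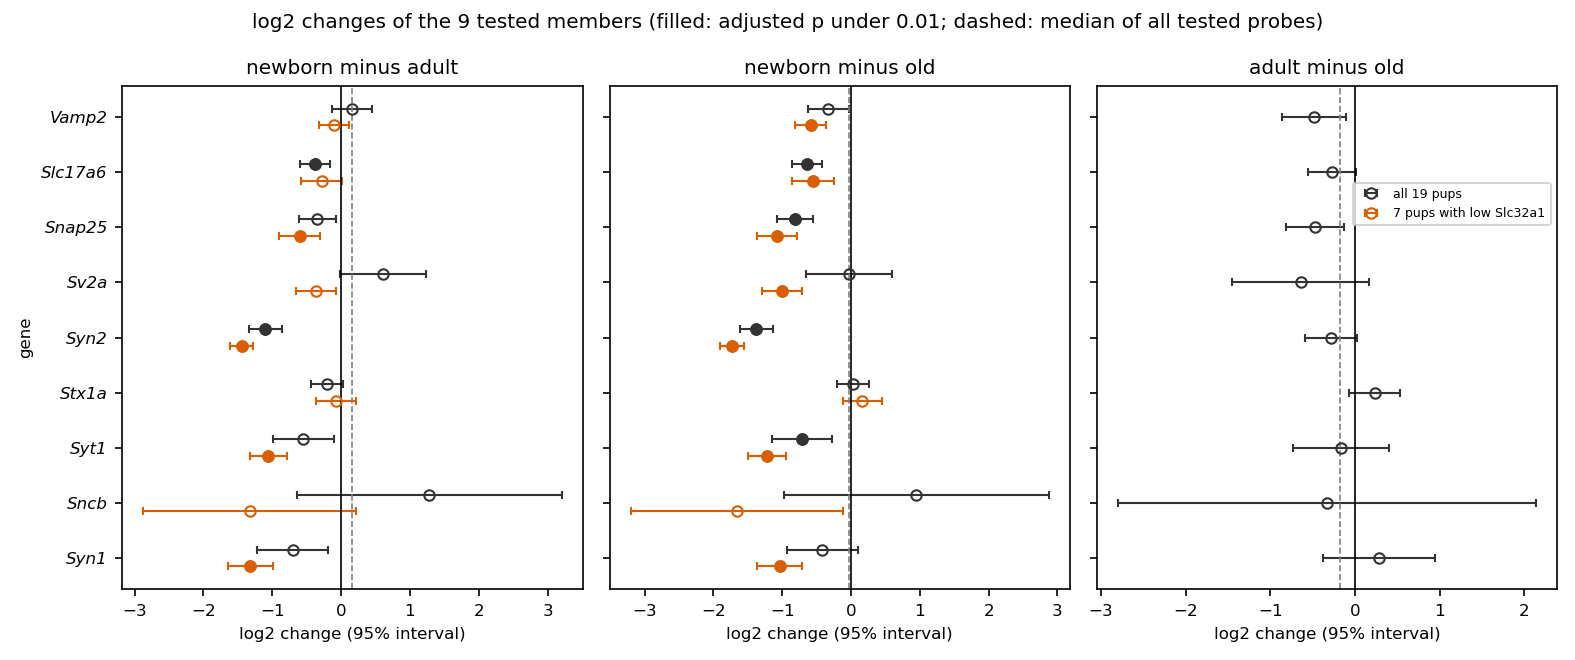
Log2 change of each tested member (x axis, points, with 95% intervals) between newborn and adult, newborn and old, and adult and old rats, for all 19 pups and for the 7 pups of low Slc32a1; filled points have an adjusted p under 0.01 and the dashed line is the median of all tested probes. Restricting the comparison to the 7 pups moves Sv2a, Syn1, Syt1 and Sncb to the left.

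Between adult and old rats none of the 9 members was called by limma or by the methods' t-test, where 47.2% of all tested probes were called by limma, 31.4% lower and 15.9% higher in adult rats. With quantile normalization the split of all calls moved from 3755 higher and 7425 lower to 5416 higher and 5346 lower, and the median of all probes from −0.18 to −0.02. At an unadjusted p under 0.05, limma gave 2 members and the methods' t-test 4. Every probe called also passes this looser threshold, and the share of all probes that pass it is not given here. These 2 counts are therefore only a description. The log2 change of adult against old rats was −0.47 for Snap25 (95% interval −0.82 to −0.13, adjusted p = 0.0170) and −0.48 for Vamp2 (95% interval −0.86 to −0.11, adjusted p = 0.0260). Without old rat 19 the count of members called was 1, Snap25. Every adult rat was below every old rat in both, as well as in Syn2 (−0.28, adjusted p = 0.111) and Sv2a (−0.64, adjusted p = 0.163). The share of all tested probes that separate adult from old rats is not given here, so the separation is only a description. With the brain marker mean as a covariate, Snap25 and Vamp2, both at −0.44, were called lower in adult rats, where 35.0% of all probes were.

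On the scan day that L1 shared with the old rats, 3 members were called, all lower in L1. The L1 pups are sibs, and no slide held both L1 and old arrays. Age therefore cannot be told apart from litter or slide here. The log2 change was −0.96 for Slc17a6 (adjusted p = 2.97e-04), −1.03 for Syn2 (adjusted p = 6.55e-05) and −0.65 for Snap25 (adjusted p = 0.00263). In these 3 no L1 pup reached an old rat, a description without the share of all probes for which that holds. The 3 of 9 called compare with 46.5% of all probes, 29.5% lower in L1. The call of Snap25 was lost with the methods' t-test (adjusted p = 0.0361). Sncb (1.91, adjusted p = 0.0182) and Sv2a (0.66, adjusted p = 0.0158) were not called. The brain marker mean was 1.80 to 2.59 in these L1 pups and 0.73 to 1.89 in the old rats, and its part in the result was not tested on this scan day.

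Litters differed in the synapsins. All L1 arrays lay on a slide of their own and were scanned on another day than those of L2, L3 and L4. For L1, litter cannot be told apart from slide or scan day. Syn1 had litter means of −0.31 in L2 (SD 0.51), 0.60 in L4 (SD 0.79), 0.72 in L3 (SD 0.45) and 0.85 in L1 (SD 0.21), a range of 1.16, with an adjusted p of 0.00680 in the F test among litters. The litter means of Syn2 ranged over 0.65 (adjusted p = 0.00410). The 2 of 9 called compare with 37.9% of all tested probes. L2, lowest in both, held 4 of the 7 pups of low Slc32a1, and L1, highest in both, held none. With the brain marker mean as a covariate no member was called among litters by limma (adjusted p = 0.0847 for Syn1 and 0.0698 for Syn2; 3 members at an unadjusted p under 0.05), where 36.3% of all probes were. None was called by limma with the slide as a block either (3 at an unadjusted p under 0.05), where 4680 of the 23668 tested probes were. The share of all probes at the unadjusted threshold is not given here, so those counts are a description. The 7 pups alone cannot show whether litters differ, as L1 has no pup and L3 has 1 among them. The calls also rested on single pups: without L1 pup 9 or 12, or L2 pup 22, 23 or 25, the count was 0, without L1 pup 11 it was 1 and without L1 pup 10 it was 3.

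Most of the members moved with the brain markers from rat to rat. In a fit over the 27 rats that allowed for their groups, 7 of the 9 had a positive slope on the mean log2 level of the 15 brain markers at an adjusted p under 0.01, and 5.11% of all tested probes did. Sncb rose by 2.07 log2 units for each log2 unit of the markers (SE 0.08, adjusted p = 1.04e-14), the smallest p of the 23668 probes. Sv2a rose by 0.61, Syn1 by 0.44, Syt1 by 0.34, Vamp2 by 0.24, Syn2 by 0.19 and Snap25 by 0.18. The slope was −0.01 (95% interval −0.11 to 0.10) for Slc17a6 and −0.09 (95% interval −0.20 to 0.01) for Stx1a. Cplx1, in the fit without the filter on dim probes, had a slope of 1.04 (adjusted p = 0.00528). It was above background on only 17 of 35 arrays, so this slope is a description. L2 pups 23 and 24, at the floor of −6.64, had low brain marker means of −0.46 and 0.04.

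The calls of these slopes rested in part on the 7 pups. Without them 2 of the 9 members had a called slope, where 1.81% of all probes had a positive one, with 2.12 for Sncb (adjusted p = 1.43e-06) and 0.61 for Sv2a (adjusted p = 0.00810). Syn1 then had 0.42 (adjusted p = 0.223), Vamp2 0.30 (adjusted p = 0.141), Syt1 0.27 (adjusted p = 0.399), Syn2 0.20 (adjusted p = 0.277) and Snap25 0.18 (adjusted p = 0.325). When the markers that are also release genes were left out of the mean, the slope of Sncb was 2.34 and that of Slc17a6 0.01. In the fit over all 27 rats with the mean of the 15 markers, 67 other release genes in no brain marker list were tested. Of these, 19 had a called positive slope and 2 a called negative one, where 5.11% and 8.36% of all tested probes did. Their median slope was −0.01 beside −0.06 for all probes.

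The rats show it directly. Sncb was −2.42 in the L2 pup with a Slc32a1 level of 0.04 and 2.83 in its litter mate with 4.67. In L3 it was −1.66 in the pup with a Slc32a1 level of −0.05, and in L4 −1.73 in the pup with 0.27 and 3.79 in the pup with 5.59. Slc17a6, by contrast, was between 5.59 and 5.95 in all pups of L4.

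**Figure D3:**
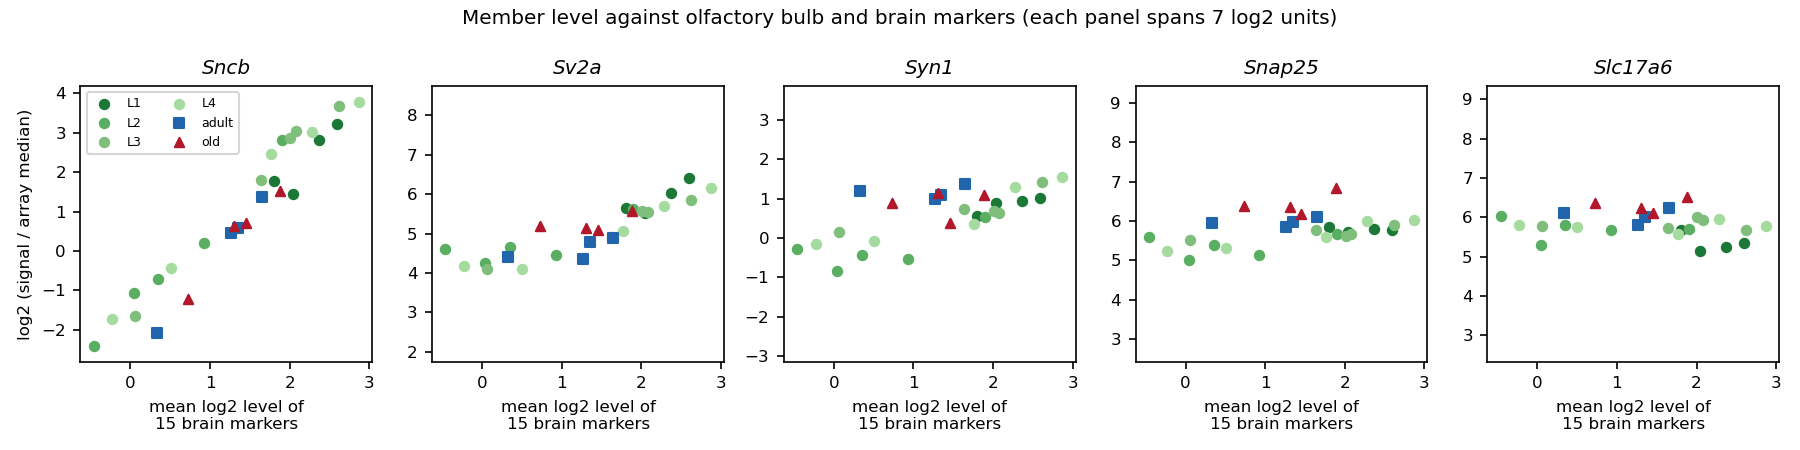
Log2 level of Sncb, Sv2a, Syn1, Snap25 and Slc17a6 (y axis, each panel spanning the same number of log2 units) against the mean log2 level of 15 olfactory bulb and brain markers (x axis) in each of 27 rats, coloured by group. Sncb climbs steeply with the markers, Sv2a and Syn1 less, and Slc17a6 has a slope of −0.01.

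The members were also set against the markers of mature sensory neurons. Omp, the olfactory marker protein, had a log2 change of −1.15 (SE 0.15) in newborn against adult rats and −2.20 against old rats, both called. The markers were not alike. Ebf1 was at 0.05 (adjusted p = 0.794) and −0.13 (adjusted p = 0.497), neither called. The remaining tested markers lay between −2.84 and −1.86 against adult rats and between −3.40 and −1.56 against old rats. After the mean of 9 mature neuron markers was subtracted in each rat, all 9 members were called higher in newborn rats in both comparisons, but so were 95.5% and 97.3% of all tested probes. The median of all probes was then 2.03 and 2.22. Syn2 stood at 0.78 against adult rats on this scale. In adult against old rats 1 member was called, Stx1a (0.61, adjusted p = 0.00198), where 20.4% of all probes were higher. The call was lost without adult rat 16. When Omp alone was subtracted, the median of all probes in newborn rats was 1.30 against adult and 2.17 against old rats.

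The wider set of release genes held calls in both directions, at a share below that of all tested probes. Of 98 other genes in lists for SNAREs, calcium sensors and priming, the active zone, vesicle proteins, transmitter loading and vesicle recycling, 93 were measured and 69 tested. Between newborn and adult rats 16 were called higher and 19 lower in newborn rats, with a median log2 change of 0.12 beside 0.15 for all tested probes, so that 50.7% were called beside 66.4% of all probes and 34 were not. Between newborn and old rats 12 were higher and 22 lower, with −0.02 beside −0.03, which is 49.3% beside 59.9% of all probes, and 35 were not called. Between adult and old rats 9 were higher and 19 lower in adult rats, with −0.12 beside −0.18, which is 40.6% beside 47.2%, and 41 were not called. With the 7 pups the median log2 change of these genes against adult rats was −0.10, beside 0.23 for all tested probes. Against old rats it was −0.11, beside 0.04.

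Unc13c, a priming factor of the Munc13 family, was the furthest below adult rats, at −2.24 (adjusted p = 1.69e-12), and was at −1.94 against old rats. Picalm, a clathrin adaptor of vesicle recycling, was at −1.78 and the SNARE Stx3 at −1.68 against adult rats. Dnm3, a dynamin, was higher in newborn rats, at 1.61 and 1.42, and the liprin Ppfia2 at 1.29 and Syt5 at 1.26 were higher than in adult rats. Sncg (gamma-synuclein), of the same family as Sncb, was at −2.38 in pups and −1.50 in adult rats, both against old rats. Rims3, of the active zone, was at −1.38 and Syt9 at 1.04 against old rats. Between adult and old rats Scamp5 was lower in adult rats (−1.24), and Picalm (1.29) and Rab3c (1.0) were higher.

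By list, the SNAREs and their assembly factors had 4 higher and 5 lower of 15 tested against adult rats and 3 and 5 against old rats. Calcium sensors and priming factors had 3 and 4 of 11, then 3 and 5, and the active zone 3 and 4 of 12 in both. Vesicle membrane and cytosol proteins had 3 and 2 of 11, then 1 and 4. Vesicle recycling had 2 and 4 of 16, then 2 and 3, and transmitter loading 1 and 0 of 4, then 0 and 1. In adult against old rats the vesicle membrane and cytosol proteins had 0 higher and 6 lower of 11, with a median of −0.61, beside 15.9% higher, 31.4% lower and a median of −0.18 over all tested probes. Among the 6 were Syngr1 (−0.87) and Dnajc5 (−0.80), both named after their values were seen. The SNAREs had 1 higher and 5 lower, calcium sensors and priming factors 2 and 3, transmitter loading 0 and 1, and the active zone and vesicle recycling 3 and 2 each.

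**Figure D4:**
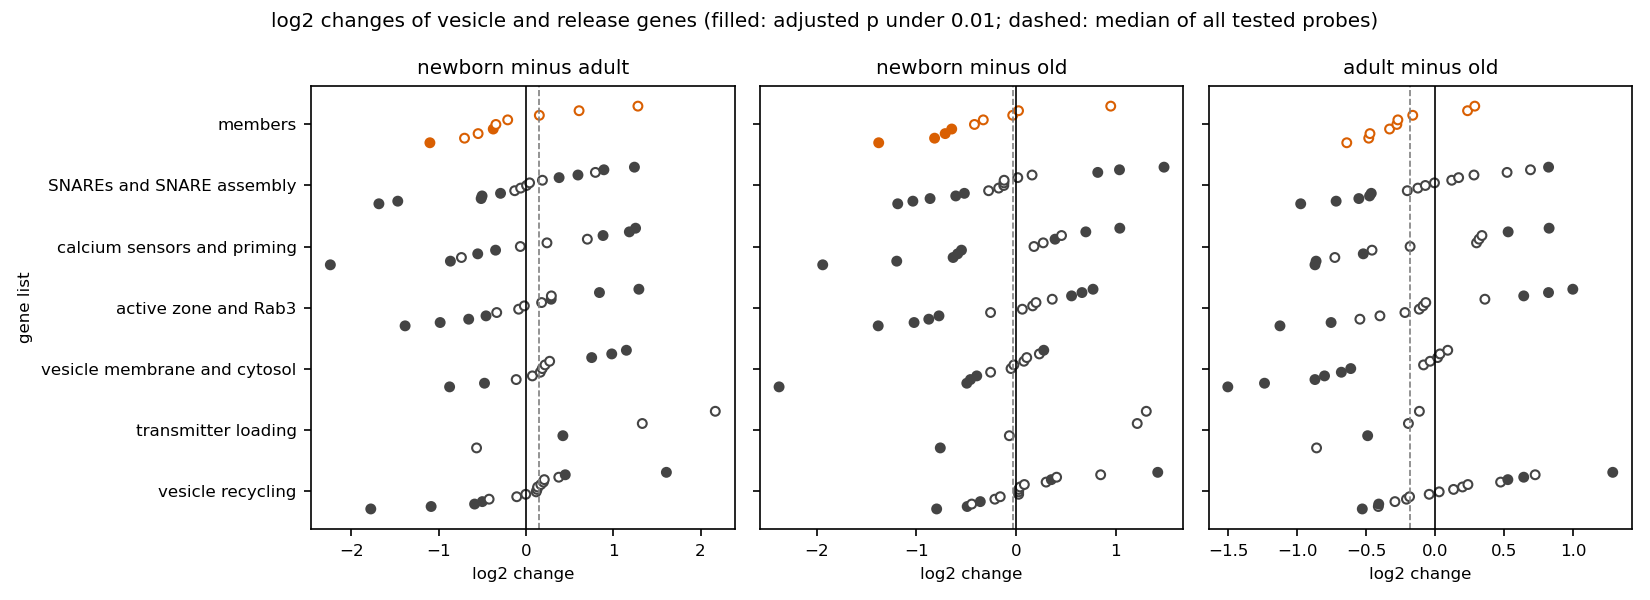
Log2 change (x axis) of the 9 tested members and of 69 other release genes by list (y axis) between newborn and adult, newborn and old, and adult and old rats; filled points have an adjusted p under 0.01 and the dashed line is the median of all tested probes. Each list has genes on both sides of the dashed line, and Syn2 is the lowest member against adult and old rats.

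Genes whose levels were most like the mean of the members were found over the 27 rats, as a description. Each member was centred on its mean but not scaled, so members of wide spread weigh most. The SD among pups was 2.06 for Sncb and 0.26 for Slc17a6. Pearson's r was 0.960 for Atp6v1g2, a subunit of the proton pump that acidifies vesicles, 0.941 for Sall1, 0.933 for Kcnip4 and 0.920 for Gnb5. Within groups, after each probe was centred on its group mean, r was 0.973 for Pcbp3, 0.969 for Eno2, 0.968 for Atp6v1g2 and 0.964 for Ppm1e. Of the members themselves, which are part of the mean, Syn1 had the highest r with it over the 27 rats (0.870), and Slc17a6 (0.262) and Stx1a (−0.19) the lowest. Within groups Sv2a (0.978) was the highest, with Sncb at 0.918 and Syn1 at 0.890. All points share the array median as their scale.

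Promoter windows of RefSeq (assembly GRCr8, 300 bases from 250 before to 50 after the start of the gene) were given for 9 of the 10 members, all but Snap25, and were searched on both strands for motifs of neuronal genes. The EBF motif TCCCNNGGG, named for factors of olfactory neurons, was in 5.91% of 33469 windows and in those of Slc17a6 and Stx1a. The cyclic AMP response element TGACGTCA was in 1.83% of windows and in that of Syn1. The 2 parts of the RE1 element, TTCAGCACC and GGACAGC, were in 0.356% and 6.59% of windows and in none of the 9. The 250 bases before the start of Slc17a6 (chr1:110348197-110348446, plus strand) and Syn1 (chrX:3725495-3725744, plus strand) are shown as examples, members whose slopes on the brain markers were −0.01 and 0.44, with the match in capitals.
Slc17a6: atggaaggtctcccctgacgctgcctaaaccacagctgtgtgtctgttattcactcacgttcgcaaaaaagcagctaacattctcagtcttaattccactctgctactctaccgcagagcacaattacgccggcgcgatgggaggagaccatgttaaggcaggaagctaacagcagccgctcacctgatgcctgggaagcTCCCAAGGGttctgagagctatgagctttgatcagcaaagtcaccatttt
Syn1: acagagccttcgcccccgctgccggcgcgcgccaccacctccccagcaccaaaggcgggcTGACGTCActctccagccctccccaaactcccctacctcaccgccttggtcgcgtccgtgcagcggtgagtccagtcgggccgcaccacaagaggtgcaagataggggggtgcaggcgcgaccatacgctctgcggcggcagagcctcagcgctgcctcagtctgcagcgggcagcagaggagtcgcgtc
A match of these letters is a description of the window and was not tested against the levels.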

How the data were processed

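RNA of rat olfactory epithelium was hybridized to Agilent whole rat genome arrays with 1 dye. The authors deposited the scanner output of Feature Extraction (9.5.1.1 for adult arrays, 9.5.3.1 for the others, per the file headers), in which the spot intensity is background-subtracted and not normalized between arrays. A GeneSpring matrix, deposited as well, holds ratio values (over the array median and a constant of each probe) and served as an alternative only.

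Control spots and spots flagged as outliers (4189 spot values on 732 probes) were left out and the spots of a probe averaged, which left 890 values on 494 probes missing. Intensities were divided by the array median, set to at least 0.01 and taken to log2. A probe was above background on an array where the flags of at least 0.5 of its spots were positive and significant, and well above background, with no flag for saturation or unevenness. A probe was tested if this held on 3 arrays of each litter and on 6 of 8 arrays of adult and of old rats. Gene names were those of the array, updated for 10735 of 24824 probes with an accession through a RefSeq table. For each gene the probe with the highest mean level was counted. The number of arrays limits the precision.

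Groups were compared in limma 3.58.1 (R 4.3.3; lmFit and eBayes over the 6 groups, newborn as the mean of the 4 litters), with Benjamini-Hochberg adjustment over the 23668 tested probes. The fit was tested on simulated data. L1 and old rats were also fitted alone. The p-values measure the spread between rats, and pups of a litter are sibs. Named were all members, the 3 other release genes with the largest called change in each direction in each newborn comparison (2 in adult against old rats), and the 5 genes most like the members, of which some are not reported here. The members, lists and markers were chosen with earlier results of these data known. The alternatives changed the scaling, background correction, filter, floor, probe, replicate, block and test. A brain marker covariate, the slopes on it and the restriction to 7 pups were added after seeing the data. No protein sequences were used here.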

Additional observations from a re-analysis of the deposited data

Results flagged for a closer look

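Among the members, 2 differed among the 4 litters in the F test of limma, Syn1 (adjusted p = 0.006796) and Syn2 (adjusted p = 0.004104), both lowest in L2 and highest in L1, where 37.9% of all tested probes were called. Neither was called with the slide as a block, where 4680 of the 23668 tested probes were. With the brain marker mean as a covariate neither was called, where 36.3% of all probes were. Both calls were also lost without L1 pup 9 or 12 or L2 pup 22, 23 or 25. The litters also differed in how many pups had low Slc32a1, 4 of 5 in L2 and 0 of 4 in L1. L1 had a slide and a scan day apart from the other litters, so litter cannot be told apart from these for L1. Dixon's test flagged no rat in any of the 60 groups of values tested (10 members in 6 groups), where chance gives about 1 in 20. With 4 or 5 rats in a group the test has little power, so it cannot show that no rat stood apart. Sncb in L3 pup 27, at −1.66 beside 1.80 to 3.67 in its litter mates, was not flagged.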

How the results depend on the processing

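No called result took the other direction under an alternative, whereas the uncalled changes of Sv2a, Vamp2 and Sncb against adult rats, 0.61, 0.15 and 1.28, took the other sign with the 7 pups (−0.37, −0.10 and −1.33), as did that of Sncb against old rats (0.95 to −1.66). The count of members called in newborn against adult rats, 2, was 6 with the 75th percentile, 5 with normexp and quantile normalization, 1 with the slide or with the scan day as a random block, 4 with every array and the rat as a block, 6 with the brain marker covariate, 4 with the 7 pups of low Slc32a1, and 1 to 5 without 1 rat. Against old rats the count of 4 was 7 with the 7 pups and 3 to 4 without 1 rat. In adult against old rats the count of 0 was 1 with litter means, 2 with every array, with only the groups compared, with the covariate or with the 7 pups, and 0 to 1 without 1 rat. Among litters the count of 2 was 1 with normexp, without a filter or with the scan day as a block, 0 with the slide as a block or with the covariate, and 0 to 3 without 1 rat. For L1 against old rats, 3, it was 3 to 4 without 1 rat. Other release genes called in adult against old rats, 28, were 18 with the scan day as a block and 16 with the methods' t-test, and 24 to 29 without 1 rat. In newborn against adult and old rats these genes, 35 and 34, were 29 to 39 and 30 to 36 without 1 rat. Relative to mature neuron markers, the 9 members against adult rats were 5 with Omp alone and 8 to 9 without 1 rat, the 9 against old rats 8 to 9, and the 1 in adult against old rats was 0 with quantile normalization or normexp, 3 with Omp alone, 2 with the 7 pups and 0 to 1 without 1 rat. Of the values of single members, 47 gained and 15 lost their call 1245 kept their side, and 11 uncalled values took the other sign by more than their SE (Vamp2, Sv2a and Sncb in pups, the first also under other scalings or probes, and Syt1, Syn2 and Slc17a6 in adult against old rats). The cause of these shifts was not tested, except that a restriction to 7 pups or to fewer rats leaves fewer samples. No paired analysis was possible because no rat numbers are shared between groups. Cplx1 and Sncb were the members nearest the background, on 17 and 31 of 35 arrays above it.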
